A study of Mus musculus with 22 samples.

Results

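The chemokine gene Cxcl10 and 8 further genes of the interferon response (Ifit1, Ifit3, Isg15, Irf1, Irf7, Ifih1, Eif2ak2 and Tlr3) were followed in mouse embryos depleted of the histone variant H2A.Z by injected siRNA. The 9 genes were taken by symbol from the 55335 genes of the deposited FPKM table (fragments mapped to a gene, scaled by transcript length and by the mapped reads of the library). Cxcl10 was picked because it was raised in knockdown blastocysts, so its values at that stage are given as a description with no test. The question was whether injected double-stranded RNA was followed by an innate response, read from these genes in each group.

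The study compared control embryos with H2A.Z knockdown (KD) embryos of B6D2F1 mice by RNA-seq as 2-cell embryos, morulae and blastocysts, in 22 libraries of 15 pooled embryos each. KD embryos had received 3 pairs of siRNA at 20 µM, about 10 pl per zygote, between 20 and 22 h after hCG. Embryos were taken at 44 h (2-cell; 4 control and 3 KD libraries), 78 h (morula; 4 control and 3 KD) and 94 h after hCG (blastocyst; 4 control and 4 KD). The treatment of the control embryos of these libraries was not stated, although the study's qPCR used controls that were not injected, and the labels give nothing, beyond the pools, on whether libraries came from separate batches of animals. Libraries were bulk pools of whole embryos, in which fewer cells of a type and less RNA per cell cannot be told apart.

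As background, double-stranded RNA in a cell is sensed by Toll-like receptor 3 in endosomes and by helicases of the RIG-I family and the kinase PKR in the cytoplasm. Their signals run through the IRF factors and NF-kB to type I interferons, which act through a surface receptor and JAK kinases on interferon-stimulated genes such as those of the IFIT family and Isg15. Cxcl10 encodes a secreted chemokine for T cells and is a target of interferon gamma, type I interferon and NF-kB. Early mouse embryos are known for a weak interferon response compared with differentiated cells.

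The knockdown label was checked by H2afz, which encodes the targeted histone variant (ENSMUSG00000037894.13; mm10 chromosome 3, 137864487 to 137866922, plus strand). H2afz stood at 1244, 1236, 905 and 1178 FPKM in the 2-cell control libraries and at 415, 139 and 112 FPKM in the KD libraries. In morulae it averaged 1357 ± 150 FPKM (SD, n = 4) in controls and 28.3 ± 2.39 FPKM (SD, n = 3) in KD, and in blastocysts 2272 ± 330 and 60.6 ± 6.33 FPKM (SD, n = 4 each). Each KD library lay below each control library of its stage, and the highest KD library was replicate 1 at the 2-cell stage. The log2 fold change of H2afz was -2.53 at the 2-cell stage (SE 0.38, limma adjusted p = 0.543), -5.41 in morulae (adjusted p = 9.71e-08) and -5.19 in blastocysts (adjusted p = 3.63e-08). Without 2-cell KD replicate 1 the 2-cell value was -3.12 (adjusted p = 0.000907). H2afv, which encodes the related variant H2A.Z.2, averaged 110 and 88.9 FPKM in control and KD 2-cell embryos, 101 and 11.3 in morulae, and 57.5 and 15.3 in blastocysts.

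Fold changes throughout are differences of log2(FPKM + 1) after scaling between libraries, fitted with limma over all genes with at least 1 FPKM in at least 3 libraries of the fit. A gene was called at an adjusted p below 0.05 and an absolute log2 fold change above 1. Of the 9 genes, 3 passed the filter at the 2-cell stage (Cxcl10, Irf1 and Tlr3), against 22.0% of all genes in the table. Cxcl10 alone passed it in morulae and in blastocysts, against 19.9% and 21.4% of all genes. The highest FPKM of any gene of the 9 below the filter was 1.29 at the 2-cell stage (Irf7), 0.0515 in morulae and 0.253 in blastocysts (Irf1 in the latter cases).

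The sensors came first. Tlr3 (ENSMUSG00000031639.12; chromosome 8, 45395665 to 45411080, minus strand), the endosomal receptor for double-stranded RNA, stood at 0.723, 0.480, 1.25 and 0.929 FPKM in the 2-cell control libraries and at 1.01, 1.25 and 2.05 FPKM in the KD libraries. The KD libraries were on the upper side, and the groups overlapped. The 2-cell log2 fold change was 0.43 (SE 0.22, 95% interval -0.06 to 0.92, limma adjusted p = 0.828), and 0.24 to 0.56 with a library left out. After the 2-cell stage Tlr3 was above 0 in 2 libraries, both controls, with at most 0.0222 FPKM. Ifih1 (ENSMUSG00000026896.14; chromosome 2, 62595798 to 62646255, minus strand), which encodes the cytoplasmic sensor MDA5, did not exceed 0.0307 FPKM and was above 0 in 11 of 22 libraries. Eif2ak2 (ENSMUSG00000024079.4; chromosome 17, 78852564 to 78882573, minus strand), which encodes PKR, did not exceed 0.290 FPKM and was above 0 in 15 of 22 libraries. In blastocysts the control libraries of Eif2ak2 (mean 0.110 FPKM) lay above the KD libraries (mean 0.0450 FPKM), at levels below the filter. Ifih1 and Eif2ak2 were thus near the lower end of what the table records in each of the 6 groups.

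Of the transcription factors, Irf1 (ENSMUSG00000018899.16; chromosome 11, 53770014 to 53778374, plus strand), an activator of interferon and of its target genes, was the more abundant at the 2-cell stage. It stood at 5.54, 4.04, 6.62 and 5.88 FPKM in the 2-cell control libraries and at 2.58, 5.59 and 4.86 FPKM in the 2-cell KD libraries. These groups overlapped, with KD replicate 1 the lowest. The 2-cell log2 fold change was -0.26 (SE 0.24, 95% interval -0.78 to 0.26, limma adjusted p = 0.867), and -0.41 to -0.0037 with a library left out. In later stages Irf1 did not exceed 0.253 FPKM in any library. Irf7 (ENSMUSG00000025498.15; chromosome 7, 141262706 to 141266481, minus strand), which amplifies type I interferon production, stood at 0.370, 0.0321, 1.29 and 1.06 FPKM in 2-cell controls and at 0.286, 0.677 and 0.968 FPKM in 2-cell KD embryos. The KD values of Irf7 lay within the control range. From the morula stage on, Irf7 did not exceed 0.159 FPKM.

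The effectors were at or next to 0. Ifit1 (ENSMUSG00000034459.8; chromosome 19, 34640871 to 34650009, plus strand), whose product binds foreign RNA, was above 0 in the 7 libraries of 2-cell embryos only, with at most 0.0535 FPKM, and at 0 in the other 15. Ifit3 (ENSMUSG00000074896.3; chromosome 19, 34583531 to 34588731, plus strand), a partner of Ifit1, was above 0 in 2 libraries, both controls. Isg15 (ENSMUSG00000035692.7; chromosome 4, 156199424 to 156200818, minus strand), a ubiquitin-like modifier, was above 0 in 1 library, a 2-cell control with 0.0618 FPKM. Ifit3 and Isg15 were therefore listed at 0 in each of the 10 KD libraries, the blastocysts with high Cxcl10 included. Ifit3b, a near-identical neighbour of Ifit3 that was looked at after its values were seen, did not exceed 0.0610 FPKM. How well reads could be assigned within this pair was not measured.

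Cxcl10 (ENSMUSG00000034855.13; chromosome 5, 92346638 to 92348889, minus strand) differed from the other 8 genes in its course. It stood at 0.929, 1.78, 2.83 and 1.08 FPKM in 2-cell control libraries and at 0, 2.26 and 0.518 FPKM in 2-cell KD libraries. The 2-cell groups overlapped, with KD replicate 1 at 0. In morulae, control libraries had 1.42, 0.243, 0.403 and 0.153 FPKM and KD libraries had 2.25, 1.73 and 1.66 FPKM. All 3 KD morula libraries lay above the control libraries, of which replicate 1 came closest. In blastocysts, control libraries had 0.0607, 0.0302, 0 and 0.131 FPKM and KD libraries had 5.54, 5.02, 2.76 and 5.99 FPKM. The blastocyst groups were far apart, as the choice of the gene on this contrast fixed.

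By mean FPKM the groups ranked in the order KD blastocyst (4.83 ± 1.43, SD, n = 4), KD morula (1.88 ± 0.321, n = 3), control 2-cell (1.66 ± 0.867, n = 4), KD 2-cell (0.926, n = 3), control morula (0.555 ± 0.587, n = 4) and control blastocyst (0.0554, n = 4). The ranges of neighbours in this order overlapped, except between KD blastocysts and KD morulae and between control morulae and control blastocysts. Control means were thus lower at each later stage, whereas among KD groups the blastocyst was highest. The table holds no counts, so the depth of each library is unknown. From the spacing of low FPKM values over 14085 genes with a single exonic stretch, a relative depth of 14.8 to 28.8 was read over the 22 libraries, by a rule chosen after the values were seen. Between 16.5 and 26.3% of low values lay within 0.05 of a whole step, and 1 step at the length of Cxcl10 came to 0.0257 to 0.0501 FPKM. Most values lay off the steps, and Cxcl10 in blastocyst control replicate 4 (0.0302 FPKM) lay below that library's step of 0.0501 FPKM, so these steps are no measured depth. The relative values were 14.8 to 22.3 in control and 17.3 to 21.3 in KD blastocysts.

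**Figure D1:**
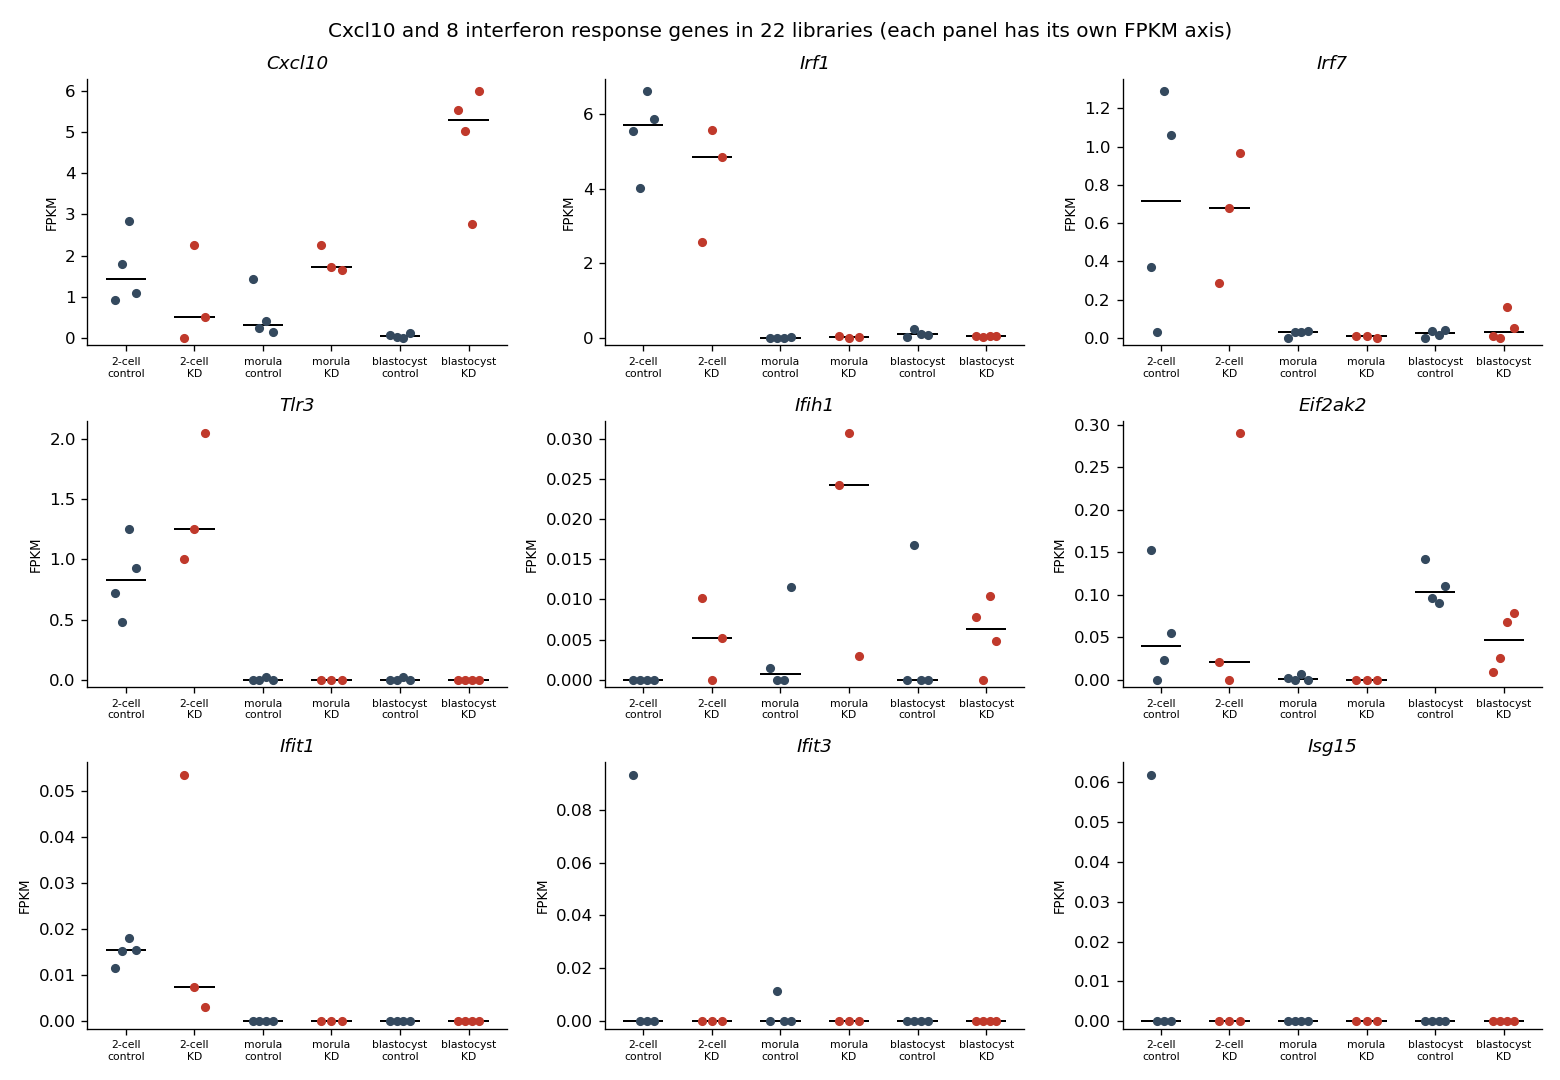
FPKM of each of the 9 genes in each of the 22 libraries by stage, with control libraries in dark blue, KD libraries in red and the median of each group as a black line; each panel has its own linear axis. Cxcl10 lies between 2.76 and 5.99 FPKM in KD blastocysts and at or below 0.131 FPKM in control blastocysts, while Irf1 and Tlr3 are seen mainly in 2-cell embryos.

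Among 2-cell embryos, limma called 0 of the 3 genes that passed the filter, with 0 of 3 at an unadjusted p below 0.05, and 0 of 3 had groups that did not overlap. Over all 12160 genes tested the shares were 0% called up, 0% called down and 6.78% with groups that did not overlap. This fit called 0 genes in all, H2afz included, while 701 genes had an unadjusted p below 0.05, and the lowest adjusted p was 0.543. Cxcl10 had a log2 fold change of -0.56 at this stage (SE 0.37, 95% interval -1.37 to 0.25, limma adjusted p = 0.840). With a library left out it ranged from -1.01 to -0.17.

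In morulae, Cxcl10 was higher in KD, with a log2 fold change of 1.02 (SE 0.22, 95% interval 0.53 to 1.51, limma adjusted p = 0.0161, higher in 3 of 3 KD libraries). It was the 1 gene of the 9 above the filter, which it passed through the 3 KD libraries and 1 control. It was called up, and its groups did not overlap. Over all 10989 genes tested, 0.992% were called up, 2.53% called down and 29.6% had groups that did not overlap. The call was close to both thresholds: the value was positive in all 12 alternatives, from 0.86 to 2.06 with adjusted p from 0.00332 to 0.0996, and was called in 3 of them. In 1 of these 3, without control replicate 1, it passed the filter through KD libraries alone. With no filter on low values the adjusted p was 0.0996. With low against high replicate numbers as a batch term the log2 fold change was 0.97 (adjusted p = 0.0147), below the fold threshold. KD libraries lay above controls both among replicates 1 and 2 and among the higher numbers, where there was 1 KD library. Leaving out control replicate 2, 7 or 8, or KD replicate 1 or 2, ended the call, with log2 fold changes of 0.94, 1.00, 0.91, 0.95 and 1.05 in turn. The last missed on its adjusted p of 0.0520.

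Whether the KD effect in morulae differed from that in 2-cell embryos was tested as an interaction. For Cxcl10 it was 1.56 on the log2 scale (SE 0.45, limma adjusted p = 0.0974), which did not pass the threshold. Without 2-cell KD replicate 2, the library with 2.26 FPKM, it was 2.01 (adjusted p = 0.0221, against 0.0221 to 0.287 over its 17 alternatives). Irf1 had a difference of 0.26 (adjusted p = 0.693) and Tlr3 of -0.45 (limma adjusted p = 0.335). Tlr3 and Irf1 were at or near 0 in morulae, so these differences came from the 2-cell values.

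In blastocysts the fitted log2 difference of Cxcl10 was 2.42 (SE 0.22), given as a description. It ranged from 2.32 to 2.64 when single libraries were left out and was 4.98 with a pseudocount of 0.1, since the control values were close to 0. Cxcl10 was the 1 gene of the 9 above the filter, and that its groups did not overlap follows from how it was chosen. In the same fit, 6.06% of the 11828 genes tested were called up, 7.69% called down and 34.5% had groups that did not overlap. No test is given, because the gene was chosen on this contrast.

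The genes below the filter were compared by a two-sided exact permutation test over libraries, which can reach 0.0286 at the lowest with 3 against 4. Of 12 such tests, 6 at each of the 2-cell and morula stages, 6 could not go below 0.05 because most libraries were at 0, and these say nothing. They were Ifit3, Isg15 and Ifih1 at the 2-cell stage and Ifit3, Eif2ak2 and Tlr3 in morulae. None of the other 6 fell below 0.05. In these 6, exact permutation p ran from 0.714 to 0.971 at the 2-cell stage and from 0.0857 (Ifih1) to 0.286 in morulae. Ifit1 and Isg15 in morulae were at 0 throughout and were not tested.

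In control embryos, Irf1 fell by 2.73 on the log2 scale from the 2-cell stage to the morula (SE 0.12, limma adjusted p = 3.00e-09 with no filter on low values). It passed the filter through the 2-cell controls alone, so the value with no filter is given. All 4 control morula libraries were below all 4 control 2-cell libraries. Over all 14686 genes tested, 27.7% were called up and 30.2% down between these stages, so a fall was common there. From morula to blastocyst Irf1, the 1 gene of the 9 with a test there, had a log2 fold change of 0.13 and was not called (limma adjusted p = 0.404), beside 11.4% of all genes called up and 9.12% called down. It was near 0 at both stages (means 0.0133 and 0.124 FPKM) and in this fit through the 2-cell controls alone. With a pseudocount of 0.1 the value was 0.84 (adjusted p = 0.0142), short of the fold threshold, so its size rests on the pseudocount. Cxcl10 had log2 differences of -0.86 and -0.45 in these contrasts, given with no test since control blastocysts entered its choice. The control libraries here are the same as in the KD comparisons.

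The rest of the pathway was read from 5 lists with 152 genes outside the 9. At the 2-cell stage, 0 of 48 listed genes tested were called (limma; 1 at an unadjusted p below 0.05), and the median log2 fold change was 0.02, against 0.00 over all genes. Over all 12160 genes this limma fit called 0, with 701 at an unadjusted p below 0.05, so the 0 calls say nothing about the lists. In morulae, 1 of 39 was called up and 0 down (limma; 17 at an unadjusted p below 0.05 and 10 at an adjusted p below 0.05), with a median of 0.14 against 0.02. Over all genes in morulae, 0.992% were called up and 2.53% down, and of 10989 genes 3352 had an unadjusted and 1458 an adjusted p below 0.05. In blastocysts, 5 of 44 were called up and 5 down, against 6.06% and 7.69% of all genes, with a median of -0.07 against 0.00. With no filter on low values, 4 were called up and 5 down. Ifng, Irf5, Tap1 and Atf3 reached 1 FPKM in KD blastocysts alone, and Ifnar2 and Oas1g in control blastocysts alone. These genes entered the blastocyst test only through the group where they were high, so for them the adjusted p with no filter is given below. The split of listed genes called in KD blastocysts into 5 up and 5 down thus rests in part on which genes passed the filter, and nothing is read from it.

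Among the interferon ligands, 13 of 21 genes were at 0 in each library. Ifnb1, the type I interferon usually made first after RNA sensing, was at 0 in 21 libraries and at 0.0453 FPKM in 1 KD 2-cell library. Ifna2 and Ifna13 were each above 0 in 1 library, a KD blastocyst (0.0563 and 0.0305 FPKM). Ifna15 and Ifnab were also above 0 in 1 library each (0.0464 and 0.0239 FPKM). Ifng (ENSMUSG00000055170.4; chromosome 10, 118441046 to 118445892, plus strand), the type II interferon that gave Cxcl10 its older name, had the highest mean of the ligands over the 22 libraries (3.69 FPKM). In control blastocysts Ifnk averaged more, with 0.932 FPKM against 0.0893 FPKM for Ifng. Ifng stood at 10.3, 18.0, 7.05 and 4.95 FPKM in 2-cell controls and at 8.10, 4.62 and 7.21 FPKM in 2-cell KD libraries. In morulae it had 3.13, 0.795, 0.850 and 0.524 FPKM in controls and 2.33, 3.36 and 1.89 FPKM in KD. In blastocysts it had 0.0928, 0, 0.181 and 0.0838 FPKM in controls and 2.56, 1.39, 2.60 and 1.24 FPKM in KD. Ifng was thus highest at the 2-cell stage in both treatments and nearly gone from control blastocysts but not from KD blastocysts, where the groups did not overlap. Its log2 fold change was 1.39 in blastocysts (SE 0.18, limma adjusted p = 0.00458 with no filter, higher in 4 of 4 KD libraries) and 0.79 in morulae (SE 0.28, adjusted p = 0.0923). Without morula control replicate 1, its highest control, the morula value was 1.05, in a fit that Ifng entered through the KD libraries alone, so its p is not given. The difference between these stages was not tested.

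Of the list of interferon receptors and their signalling genes, 0 of 11 genes tested were called up in KD blastocysts and 1 was called down (limma; 3 of 11 at an unadjusted p below 0.05), against 6.06% and 7.69% of all genes. This was Ifnar2, which encodes a subunit of the type I interferon receptor. It had 2.55, 2.12, 2.05 and 1.43 FPKM in control and 0.489, 0.247, 0.168 and 0.126 FPKM in KD blastocysts. All KD libraries lay below the controls, with a log2 fold change of -1.25 (SE 0.18, limma adjusted p = 0.00562 with no filter). Ifnar2 rose in controls from morula to blastocyst by 1.46 on the log2 scale. Ifnar1, the other subunit, had -0.10 in KD blastocysts (adjusted p = 0.724), and Irf9, a partner of Stat2, 0.13 (adjusted p = 0.644). Stat2, a signal carrier below the type I interferon receptor, averaged 5.09 ± 0.548 FPKM in control and 3.61 ± 0.507 FPKM in KD 2-cell embryos (SD, n = 4 and 3), with a log2 fold change of -0.35 (limma adjusted p = 0.828), and was below the filter later. Jak2 had the highest mean of this list over the 22 libraries (31.2 FPKM). It averaged 85.8 and 108 FPKM in control and KD 2-cell embryos and did not exceed 2.37 FPKM later. Ifngr1, a subunit of the interferon gamma receptor named after its values were seen, averaged 4.25 ± 1.47 FPKM in control and 1.72 ± 0.658 FPKM in KD blastocysts (SD, n = 4 each), with a log2 fold change of -0.93 that did not pass the fold threshold.

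Of the sensors and adaptors outside the 9 genes, 1 of 10 tested was called up in KD blastocysts and 0 down (limma; 5 of 10 at an unadjusted p below 0.05). Over all genes, 6.06% were called up, 7.69% down, and 5439 of 11828 had an unadjusted p below 0.05, so these counts were near the background. The gene was Irf5, a factor downstream of Toll-like receptors, with 0.0355, 0.141, 0.130 and 0.0393 FPKM in controls and 1.17, 0.232, 2.84 and 1.56 FPKM in KD. KD replicate 4 lay nearest to the controls, and the groups did not overlap. Its log2 fold change was 1.04 (SE 0.25), and with no filter it was not called (limma adjusted p = 0.0612). Irf5 passed the filter through KD replicates 1, 5 and 6, and without any of these it was not tested. Mavs, the adaptor of the RIG-I helicases, had lower values in KD morulae (log2 fold change -0.86, limma adjusted p = 0.0332 with no filter) and blastocysts (-0.62, adjusted p = 0.0260), short of the fold threshold. In morulae it reached 1 FPKM in controls alone, with means of 1.56 FPKM in control and 0.346 FPKM in KD, and with a pseudocount of 0.1 the morula value was -1.81, past that threshold. The blastocyst value had an adjusted p below 0.05 in 8 of 13 alternatives (0.0159 to 0.0860). Irf3, the factor that Mavs acts through, had -0.57 in morulae (adjusted p = 0.0338, and below 0.05 in 6 of 12 alternatives, from 0.0210 to 0.127) and -0.00095 in blastocysts (adjusted p = 0.997). Ddx58, which encodes RIG-I, and Dhx58, a helicase related to it, did not exceed 1.32 and 0.976 FPKM in any library. Tarbp2, a partner of Dicer that also binds PKR, had the highest mean of the list over the 22 libraries (17.8 FPKM). In control blastocysts and KD 2-cell embryos Zc3hav1 averaged more (22.3 and 7.61 FPKM) than Tarbp2 (15.4 and 6.82 FPKM).

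Of 60 further interferon-stimulated genes, 16 were tested in blastocysts, of which 1 was called up and 3 down, against 6.06% and 7.69% of all genes. The median log2 fold change was -0.49 against 0.00 over all genes, and 4 of the 16 were positive. By limma, 11 had an unadjusted and 10 an adjusted p below 0.05, against 5439 and 4321 of all 11828 genes. These values leave out the listed genes below the filter. Of those, Ifitm1 (0 to 0.0797 FPKM in control, 0.272 to 0.808 in KD), Ddx60 (0 to 0.0379, 0.128 to 0.388) and Parp12 (0.0367 to 0.0843, 0.196 to 0.423) were higher in each KD library. Dtx3l was lower in each, with at least 0.017533 FPKM in control and at most 0.017479 FPKM in KD. Over all genes tested, 34.5% had groups that did not overlap. Tap1, a peptide transporter of antigen presentation, averaged 0.494 FPKM in control and 2.13 FPKM in KD blastocysts (log2 fold change 1.05, SE 0.17, limma adjusted p = 0.00601 with no filter). Without control or KD replicate 4 its log2 fold change was 0.96 and 0.97, below the fold threshold. The genes called down were Oas1g (-1.18, SE 0.22, adjusted p = 0.0194 with no filter), Ifitm2 (-1.08, SE 0.25, adjusted p = 0.00548) and B2m (-1.02, SE 0.21, adjusted p = 0.00308). Ifitm2 missed the fold threshold without control replicate 1 (-0.99) or KD replicate 5 (-0.84), and B2m without control replicate 1 (-0.89), KD replicate 5 (-0.87) or KD replicate 6 (-0.9995). Oas1g belongs to the synthetases that respond to double-stranded RNA. Its relative Oas1a averaged 3.22 FPKM in control and 1.31 FPKM in KD blastocysts, and how well reads could be assigned between them was not measured. Ifitm2 encodes a membrane protein that limits virus entry. B2m, the light chain of MHC class I, had the highest mean of the list over the 22 libraries (81.6 FPKM). In blastocysts Ifi30 averaged 148 FPKM in control and 117 FPKM in KD, against 148 and 72.4 FPKM for B2m. B2m stood at 174, 117, 150 and 151 FPKM in control and 70.3, 91.1, 58.3 and 69.8 FPKM in KD blastocysts. Its groups did not overlap. In morulae B2m stood the other way round, at 48.9, 43.0, 40.4 and 39.2 FPKM in control and 81.5, 76.2 and 62.5 FPKM in KD, with a log2 fold change of 0.88 (limma adjusted p = 0.00436) short of the fold threshold.

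Of 6 chemokine and NF-kB response genes tested in blastocysts, 2 were called up and 1 down, against 6.06% and 7.69% of all genes. Cxcl16 (ENSMUSG00000018920.11; chromosome 11, 70453983 to 70459984, minus strand), a membrane-bound chemokine, stood at 2.35, 4.46, 8.81 and 7.96 FPKM in control and 26.0, 17.1, 18.4 and 12.4 FPKM in KD blastocysts. In morulae it stood at 0.696, 0.962, 1.68 and 1.47 FPKM in control and 4.14, 3.72 and 5.39 FPKM in KD. At both stages each KD library lay above the controls. The log2 fold changes were 1.38 in morulae (SE 0.22, limma adjusted p = 0.00487) and 1.59 in blastocysts (SE 0.31, adjusted p = 0.00202), and Cxcl16 was the 1 listed gene called in morulae. Atf3, a stress-induced transcription factor, averaged 0.126 FPKM in control and 1.60 FPKM in KD blastocysts (log2 fold change 1.19, SE 0.15, limma adjusted p = 0.00313 with no filter). Il6, an inflammatory cytokine, was lower in KD, with 4.31 against 1.46 FPKM (log2 fold change -1.11, SE 0.24, limma adjusted p = 0.00412). Without control replicate 1 or KD replicate 6 its log2 fold change was -0.92 and -0.93, short of the fold threshold. At the 2-cell stage, below the filter and with no test given, Il6 stood the other way round. It was at 0 in the 4 control libraries and had 0.102, 0.233 and 0.0830 FPKM in the KD libraries. Cxcl9 and Cxcl11 share the receptor of Cxcl10. Cxcl9 did not exceed 0.377 FPKM in any library. At the 2-cell stage it had 0 to 0.145 FPKM in control and 0.253 to 0.377 FPKM in KD libraries, below the filter and with no test given. Its groups overlapped in morulae and in blastocysts (means 0.0256 FPKM in control and 0.156 FPKM in KD blastocysts). Cxcl11 averaged 1.12 FPKM in control and 1.15 FPKM in KD 2-cell embryos, with up to 2.85 FPKM in 1 control library, and did not exceed 0.0525 FPKM later. Other listed genes were lower in each KD 2-cell library, again with no test given. Ccl3 had 1.56 to 3.04 FPKM in control and 0.744 to 1.08 FPKM in KD, and Cxcr3 0.819 to 1.21 and 0.0213 to 0.601 FPKM. Gbp7 and Ifit1bl1, of the further interferon-stimulated genes, were also lower. Over all genes tested at this stage, 6.78% had groups that did not overlap. Nfkbia, an inhibitor of NF-kB and itself a target of it, was named after its values were seen. It averaged 2.71 FPKM in control and 5.89 FPKM in KD blastocysts, with a log2 fold change of 0.93 (limma adjusted p = 0.00343) short of the fold threshold. Birc3 had the highest mean of the list over the 22 libraries (10.8 FPKM). In blastocysts Cxcl16 averaged more (5.90 FPKM in control and 18.5 FPKM in KD) than Birc3 (3.82 and 5.90 FPKM).

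**Figure D2:**
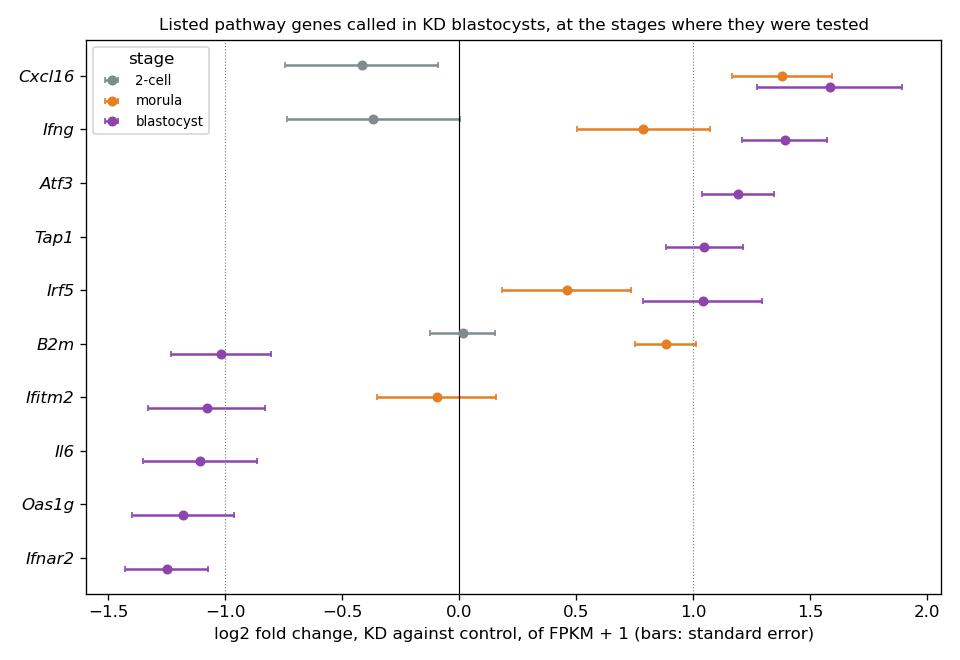
Log2 fold change of KD against control, with its standard error, for the 10 listed genes called in KD blastocysts, drawn in grey for 2-cell embryos, orange for morulae and purple for blastocysts wherever the gene was tested; dotted lines mark -1 and 1. Ifng, Cxcl16, Atf3, Tap1 and Irf5 lie above 1 in blastocysts, and Ifnar2, Oas1g, Il6, Ifitm2 and B2m below -1.

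Between control stages, 10 of 61 listed genes were called up and 23 down from the 2-cell stage to the morula, and 12 up and 7 down from morula to blastocyst. Over all genes, 27.7% were called up and 30.2% down in the former contrast, and 11.4% and 9.12% in the latter. Listed genes high at a single stage passed the filter through that stage, so the counts are a description. Falls to the morula included Parp12 (-6.30 on the log2 scale), Jak2 (-5.63), Ifitm3 (-4.08) and Ifng (-2.36). Rises included Ifitm2 (5.60) and Ifi30 (2.83), whose product is a lysosomal reductase. From morula to blastocyst, rises included Ube2l6, the conjugating enzyme for Isg15 (2.41), and Ifi30 (2.11). Several interferon-related genes were thus abundant in control embryos at one stage or another while Isg15 itself was not.

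The 5 genes whose pattern over the 22 libraries was most like that of Cxcl10, among 15696 ranked by Pearson r of log2(FPKM + 1), were Ddit4l (r = 0.861), B930059L03Rik (r = 0.848), Dyrk3 (r = 0.835), Plk2 (r = 0.804) and Cdkn2b (r = 0.775; n = 22 each). Spearman rho was 0.827, 0.877, 0.816, 0.755 and 0.703 in turn. The libraries share stages, treatments and controls, so these values describe a pattern over 6 groups more than 22 separate points. Ddit4l, an inhibitor of mTOR signalling, averaged 12.0 ± 1.57 FPKM in control and 34.9 ± 8.95 FPKM in KD blastocysts (SD, n = 4 each). Plk2, a kinase induced by stress, averaged 3.31 ± 1.23 and 26.7 ± 7.43 FPKM there. Cdkn2b, an inhibitor of the cell cycle, averaged 0.350 ± 0.240 and 2.17 ± 0.457 FPKM. Among interferon-related genes, r to Cxcl10 was 0.609 for Cxcl16, 0.322 for Ifng, 0.0107 for Irf1 and -0.0438 for Tlr3. The 5 nearest genes were outside the 5 lists, which hold 152 genes beside the 15696 ranked. The r values include the KD blastocysts on which Cxcl10 was chosen, so they are a description and nothing is read from them.

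Markers of stage and of other cells were summed beside the Cxcl10 values. The sum of 8 blastocyst markers was 1103 to 1600 FPKM in control and 706 to 1039 FPKM in KD blastocysts, with Krt18 the most abundant in both. It was 223 to 296 FPKM in control and 101 to 153 FPKM in KD morulae. The sum of 3 2-cell markers was 142 to 196 FPKM in 2-cell embryos of both treatments, 0.0826 to 0.785 FPKM in control blastocysts and 1.90 to 5.14 FPKM in KD blastocysts. The lower sum of blastocyst markers in KD blastocysts was carried by Krt18 (799 FPKM in control and 390 in KD) and Krt8 (343 and 239). Means of Gata3 (34.9 and 28.9 FPKM), Eomes (8.01 and 5.92) and Sox2 (1.67 and 1.36) were also lower in KD. Means of Nanog (132 and 161 FPKM), Pou5f1 (14.0 and 25.7) and Cdx2 (1.79 and 1.89) were higher. In morulae the lower KD sum came mostly from Nanog (106 and 20.7 FPKM). The sum of 2-cell markers was mostly Zfp352 (0.370 and 3.28 FPKM). Neither sum overlapped between control and KD blastocysts, and the part of developmental stage in the Cxcl10, Ifng and Ifnar2 values was not tested. The sum of 10 immune cell markers was 1.47 to 2.93 FPKM in control and 2.12 to 6.63 FPKM in KD blastocysts, which overlapped. Means of Cd74 (0.656 and 1.57 FPKM in control and KD), Cd52 (0.408 and 1.19), Csf1r (0.533 and 0.734) and Coro1a (0.0502 and 0.338) were higher in KD. Means of Laptm5 (0.381 and 0.112 FPKM), Fcer1g (0.174 and 0.0545) and Lyz2 (0.0766 and 0.0205) were lower. Ptprc, which marks blood leukocytes, was at 0 in each KD and 3 of 4 control blastocyst libraries. Tyrobp and Aif1 were at 0 in control blastocysts and at 0 in 3 and 2 of the 4 KD libraries in turn. In morulae the sum of immune cell markers was 3.26 to 4.53 FPKM in control and 3.76 to 5.90 FPKM in KD, which overlapped. Cd52 did not overlap there, with 0.697 to 1.23 FPKM in control and 1.37 to 2.88 FPKM in KD. The morula mean of Cd74 was lower in KD (1.71 FPKM in control and 1.49 FPKM in KD). The part of immune cells in the Cxcl10 values was not tested. The sum of 12 cumulus cell markers was 3.57 to 6.79 FPKM in 2-cell embryos, with most from Kitl (2.03 FPKM in control and 2.71 FPKM in KD) and Tnfaip6 (1.68 FPKM in each), and at most 0.522 FPKM later, with Ptx3 and Fshr at 0 in each library. The sum of 7 fibroblast markers did not exceed 1.13 FPKM in any library, with Postn or Thy1 the most abundant and Col1a2 and Lum at 0. In blastocysts it was 0.298 to 0.650 FPKM in control and 0.0253 to 0.205 FPKM in KD, which did not overlap. Thy1 averaged 0.431 FPKM in control and 0.0441 FPKM in KD blastocysts.

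The library protocol did not keep strand, so genes on the opposite strand were checked. Cxcl10 shares 133 exonic bases with Art3, which lies on the plus strand of chromosome 5 from 92331827 to 92414628 and was looked at after its values were seen. Art3 averaged 2.21 ± 0.714 FPKM in control and 3.68 ± 2.81 FPKM in KD blastocysts (SD, n = 4 each), with a log2 fold change of 0.41 (limma adjusted p = 0.386) and an r to Cxcl10 of 0.186. KD replicate 1 had 7.82 FPKM of Art3, and the groups overlapped. In morulae Art3 averaged 3.28 FPKM in control (2.01 to 4.46 FPKM) and 5.65 FPKM in KD (3.23 to 9.80 FPKM), and these groups also overlapped. Irf1, Irf7, Tlr3 and Eif2ak2 share 135, 45, 381 and 174 exonic bases with Gm17334, Phrf1, Gm45542 and Gm26637 in turn, and Eif2ak2 a further 47 with n-R5s29.

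Promoters of the 9 genes were read from RefSeq (build GRCm38.p6), as 10 windows of 300 bases, with all 9 genes matched. The core of the interferon-stimulated response element, GAAANNGAAA on either strand, was in the windows of 6 of the 9 genes (Cxcl10, Eif2ak2, Ifih1, Ifit1, Ifit3 and Isg15), against 3.44% of 32851 windows of the same length. The gamma-activated site, TTCNNNGAA on either strand, was in 2 (Eif2ak2 and Irf1), against 8.30% of windows. The kB consensus, whose exact form was chosen after these sequences were seen, was in 3 (Cxcl10, Irf1 and Tlr3), against 8.46% of windows. Of these 3 genes, Irf1 and Tlr3 were at or near 0 in KD blastocysts (means 0.0443 and 0 FPKM). Cxcl10 was the 1 gene of the 9 with both the response element core and the kB consensus. The core began 213 bases before its start, and kB matches began 159, 104 and 103 bases before it, of which the last 2 overlap. A match is a description of letters and not a bound site. To show this difference, 250 bases before the start are given for Cxcl10, which was high in KD blastocysts (chr5:92348890-92349139, minus strand, GRCm38.p6), and for Isg15 (chr4:156200819-156201068, minus strand) and Ifit3 (chr19:34583279-34583528, plus strand), which were at 0 there. They were picked after the values were seen, and capitals mark matches to any of the 3 motifs: the response element core in Isg15 and Ifit3, and in Cxcl10 the core first and then the kB matches.
Cxcl10: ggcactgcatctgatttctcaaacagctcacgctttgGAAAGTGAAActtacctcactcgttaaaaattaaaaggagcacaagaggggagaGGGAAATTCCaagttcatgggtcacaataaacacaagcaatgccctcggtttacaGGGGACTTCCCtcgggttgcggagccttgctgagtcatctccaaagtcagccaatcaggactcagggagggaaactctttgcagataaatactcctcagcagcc
Isg15: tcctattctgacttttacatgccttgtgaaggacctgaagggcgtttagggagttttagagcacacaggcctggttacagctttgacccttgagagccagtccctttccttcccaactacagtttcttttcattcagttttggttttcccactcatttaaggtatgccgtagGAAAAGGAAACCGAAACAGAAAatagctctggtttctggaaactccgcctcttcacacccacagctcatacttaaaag
Ifit3: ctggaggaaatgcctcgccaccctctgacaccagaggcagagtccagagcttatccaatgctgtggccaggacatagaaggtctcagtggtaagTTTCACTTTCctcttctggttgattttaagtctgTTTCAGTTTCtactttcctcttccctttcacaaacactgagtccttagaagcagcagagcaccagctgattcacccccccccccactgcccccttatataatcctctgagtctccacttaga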

How the data were processed

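The authors aligned reads of 150 bp pairs to mm10 with STAR and made FPKM per gene with StringTie 2.1.4, and the values were used as deposited, 1 column per library. The deposited FPKM are scaled by transcript length and by mapped reads of the library, with no scaling between libraries stated, and the authors' own DESeq2 1.30.1 test on featureCounts 1.6.2 counts is not in the table. The 9 genes and all lists were chosen with earlier results of these data known.

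FPKM were divided by a median-of-ratios factor within each fit and taken as log2(FPKM + 1), keeping genes with at least 1 FPKM in at least 3 libraries. Each stage was fitted alone with limma 3.58.1 in R 4.3.3 (trended empirical Bayes), control stages were fitted together, and the difference of the KD effect used the 2-cell and morula libraries. P-values were adjusted by Benjamini-Hochberg over all genes kept, and the limma call needed an adjusted p below 0.05 and an absolute log2 fold change above 1. The fit was tested on simulated data. Other values used Python 3.11.15, numpy 2.4.6, pandas 2.3.3 and scipy 1.17.1, and figures matplotlib 3.10.9. Tests on single genes below the filter were two-sided exact permutation tests.

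Named genes were the 9, the called genes of each list (at most 4 with the largest change in each direction), the most abundant gene of each list, a fixed set that included Ifnb1, Ifnar1, Ifnar2, Stat2, Irf9, Irf3, Mavs, Ddx58, Dhx58, Cxcl9, Cxcl11, H2afz and H2afv, and the 5 genes most like Cxcl10. The most abundant gene of a list was taken by its mean over the 22 libraries. Genes named beside these were chosen after their values were seen. Alternatives were a pseudocount of 0.1, no filter, FPKM as deposited, a replicate block, low against high replicate numbers as a batch term, and each library left out. Sequences were taken from RefSeq (GRCm38.p6). Of 55335 genes, 55154 matched the annotation by identifier, and 13853 were at 0 in every library.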

Additional observations from a re-analysis of the deposited data

Results flagged for a closer look

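In groups of 4 libraries, a library stood far from the other 3 in 8 of 26 groups tested, where chance gives about 1 in 20 groups. Each was a value next to 0, and in 6 of the 8 groups (Ifit3, Isg15, Tlr3, and Ifih1 in blastocysts) the other 3 libraries were at 0. Any value above 0 stands apart there, so the chance rate does not apply. Ifit3 had 0.0932 FPKM in 2-cell control replicate 1 and 0.0115 FPKM in morula control replicate 2, each beside 0 in the other libraries of the group. Isg15 had 0.0618 FPKM in 2-cell control replicate 1 beside 0 in the others. Irf1 had 0.0235 FPKM in morula control replicate 8. Ifih1 had 0.0115 FPKM in morula control replicate 8 and 0.0168 FPKM in blastocyst control replicate 4. Tlr3 had 0.0189 FPKM in morula control replicate 7 and 0.0222 FPKM in blastocyst control replicate 5.

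By the limma interaction term, 3 named genes had a KD effect in morulae that differed from that in 2-cell embryos. The difference was 1.77 on the log2 scale for Cxcl16 (adjusted p = 0.0444), -2.88 for H2afz (adjusted p = 0.00890) and -2.71 for H2afv (adjusted p = 3.02e-05). For Cxcl16 the adjusted p was 0.05 or above in 15 of 17 alternatives, with values from 1.51 to 2.43 and adjusted p from 0.0205 to 0.146. By the same term B2m had a difference of 0.86 (adjusted p = 0.0349), short of the fold threshold. For H2afz it was 0.0536 with no filter on low values.

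B2m was higher in KD morulae and lower in KD blastocysts. The KD mean minus the control mean was 30.6 FPKM in morulae, with each KD library above each control, and -75.6 FPKM in blastocysts, with each KD library below each control. The difference between these stages was not tested.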

How the results depend on the processing

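Of 843 values under an alternative, 772 kept their direction and their side of the adjusted p threshold, or their size. The others were 21 that moved in size, 37 that lost an adjusted p below 0.05, 5 that gained it and 8 that changed sign. These labels leave out the fold threshold. Calls lost on the fold alone, as for Cxcl10 in morulae and B2m, Ifitm2, Il6 and Tap1 in blastocysts, are thus among the 772. Alternatives for the pathway counts of the control stages and for genes outside the 9 were chosen after seeing the data.

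The 1 gene of the 9 called in KD morulae became 0 with no filter, with FPKM as deposited, with a replicate block and with low against high replicate numbers as a batch term, and 0 to 1 with a library left out. For Cxcl10 the log2 fold change in these 4 settings was 1.02 (adjusted p = 0.0996), 0.95, 0.86 and 0.97, so the filter acted on the adjusted p and the others on the fold. Over all 12 alternatives, 9 gave an adjusted p below 0.05 (0.00332 to 0.0996). For pairing, control and KD libraries of the same number correlated at -0.111 to 0.354 in their deviations from group means. By range of numbers, morula controls 1 and 2 correlated with KD 1 and 2 at 0.0944 to 0.181 and controls 7 and 8 with KD 6 at 0.185 and 0.347, while pairs across the ranges gave -0.278 to -0.0945. 2-cell KD 1 and KD 4 showed the same signs. The labels do not say what the numbers stand for.

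Listed genes called in KD morulae went from 1 to 5 with a pseudocount of 0.1 (2 up, 3 down), to 2 with FPKM as deposited (1 up, 1 down), and to 1 to 3 with a library left out (3 without control replicate 1, 2 without KD replicate 1). FPKM as deposited shifted the median log2 fold change of all genes in morulae by -0.10 and gave 71 genes up and 424 down. Listed genes called in KD blastocysts ranged from 7 to 14.

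From the 2-cell stage to the morula in controls, the count among the 9 went from 1 to 2 with a pseudocount of 0.1 and was 1 to 2 with a library left out (2 without 2-cell control replicate 1 or morula control replicate 1). From morula to blastocyst it went from 0 to 1, and the listed genes from 19 to 30, with a pseudocount of 0.1. The gene added was Cxcl10 each time, which has no test in these contrasts, so nothing is read from it. Values that changed sign were all short of the threshold: Ifnar1 at the 2-cell stage (0.033 with the block, 0.032 without control replicate 5; -0.33 to 0.032 with a library left out), Cxcl11 at the 2-cell stage (-0.016 without control replicate 2; up to 0.53), Irf3 in blastocysts (0.045, 0.074, 0.10 and 0.020 without control 4, control 5, KD 1 and KD 5; lowest -0.088) and Irf9 in blastocysts (-0.026 without control 6; up to 0.22). Except where stated, the cause was not tested.

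Limits: the depth of each library is unknown, and genes near 0 FPKM could not be told from genes not expressed. Groups held 3 or 4 pools. The siRNA sequences were not among the files used and the control treatment was not stated, so an effect of injected RNA and an effect of H2A.Z loss cannot be told apart. The first stage was taken at 44 h after hCG, following injection at 20 to 22 h, and an earlier, passing response was not measured.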
